A study of Mus musculus with 27 samples.

Results

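The effect of 11 days of cyclosporin A (CsA) on mouse bone marrow cultures was measured in 6 of the series' 27 arrays. They were chosen by their labels alone, with no measured value: 3 arrays of cells kept for 11 days with Flt3 ligand (Flt3-L) and CsA, and 3 arrays of cells kept for 11 days with Flt3-L and no CsA. All 19935 genes tested in the series are covered. Both groups were bone marrow cells from femurs and tibiae of C57BL/6 mice aged 8-12 weeks, kept in medium with Flt3-L at about 200 ng/ml that came from transfected B16 tumour cells. CsA was added at 2 µg/ml, 30 min before the ligand, and stayed in the medium. The labels speak of biological replicates and do not say whether an array holds 1 mouse or a pool, nor do they give cell numbers, viability or the drug's solvent. The same comparison was made by the study at 12 h, 24 h and 48 h, and unstimulated marrow cells were also measured. The 6 arrays at 11 days share no array with those earlier comparisons.

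CsA binds cyclophilin, and that complex blocks calcineurin, a phosphatase activated by calcium and calmodulin. Calcineurin removes phosphates from the NFAT transcription factors, which then enter the nucleus and switch on genes such as Rcan1, Egr2 and cytokine genes. The drug is used to suppress T cells in transplantation, but myeloid cells also carry calcineurin and NFAT. Flt3-L drives progenitors in such cultures toward plasmacytoid dendritic cells, which make type I interferon, and toward conventional dendritic cells of type 1 (cDC1), which cross-present antigen to CD8+ T cells, and type 2 (cDC2), which present mainly to CD4+ T cells.

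Values are array intensities on a linear scale, and differences are log2 differences, CsA minus no CsA, ± SE with 3 arrays a group. Genes with an adjusted p below 0.05 in 1 limma fit over the 27 arrays are termed called, and no other gene is said to rise or fall. Arrays of a group at 11 days correlated at 0.9968 or more over all genes tested, and every one of the 6 lay closest to an array of its own group. The first principal component of the 6 arrays held 63.0% of their variance and separated the groups. The cultures without CsA carried dendritic cell markers. Itgax (CD11c) averaged 2822 there and 186 in unstimulated marrow, Xcr1 1093 and 64.1, and Clec9a 907 and 148 (geometric means, n = 3 each). They carried macrophage markers as well, with Csf1r at 4438, 4034 and 4589.8 and Adgre1 (F4/80) at 4586, 4294 and 4433. Both kinds of marker were thus present, and in such bulk samples fewer cells of a type and less RNA per cell cannot be told apart.

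At 11 days 980 of the 19935 genes were higher with CsA (4.92%) and 1411 were lower (7.08%), 12.0% of all genes in either direction. Counts of list members given below are to be read beside these shares. At the earlier times the shares were 2.82% higher and 3.91% lower (12 h), 1.6% and 2.19% (24 h), and 2.17% and 2.34% (48 h). The falls were larger than the rises. Of the called genes, 24 rose at least 2-fold (0.12%) and 150 fell at least 2-fold (0.752%). The median log2 difference was 0.29 among the called rises, -0.41 among the called falls and 0.03 over all genes. In 29.8% of all genes the 3 arrays with CsA lay wholly on one side of the 3 without it, so a lack of overlap alone is common here. Among the 20 largest falls were B cell genes (Ms4a1, Fcmr, Cd79b, Cd79a, Jchain), neutrophil genes (Ngp, Lcn2, S100a8) and the eosinophil receptor Ccr3. Genes of matrix and its breakdown (Mmp13, Fn1) and the acid phosphatase Acp5 were also among them. The largest rises were Mcoln3, a channel of endosomes and lysosomes, and Lox, an enzyme that cross-links collagen.

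**Figure D1:**
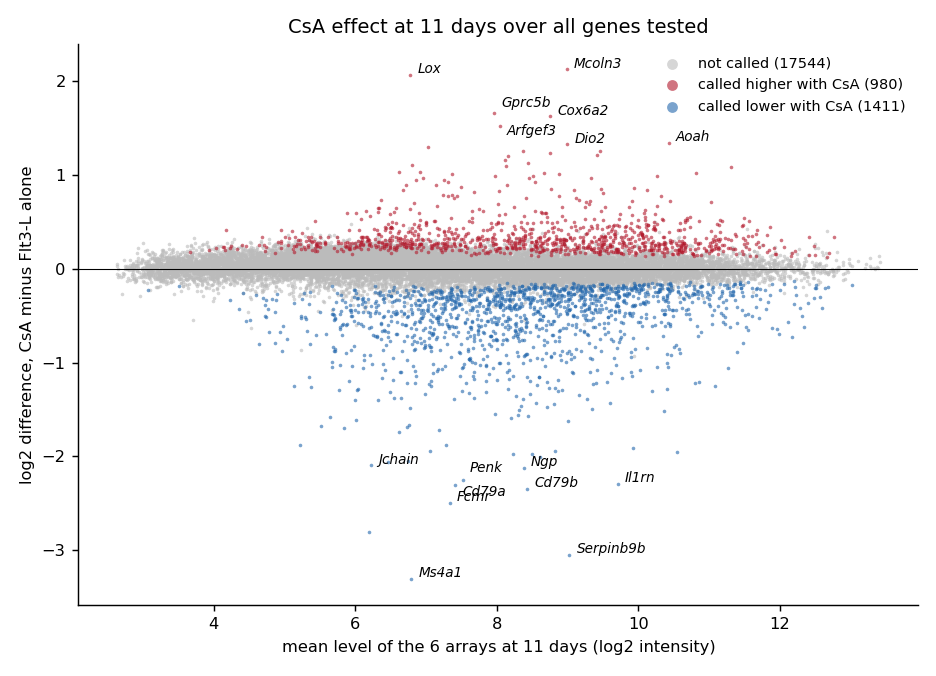
Log2 difference (CsA minus Flt3-L alone, vertical axis) against the mean log2 intensity of the 6 arrays at 11 days (horizontal axis), 1 point a gene. The 1411 called falls (blue) reach further from 0 than the 980 called rises (red), and the leading genes are named; immune receptor segments are plotted but left unnamed.

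The drug's own pathway moved little as RNA. Of 26 measured calcineurin, NFAT, cyclophilin and calcium entry genes, 3 fell (11.5%) and 1 rose (3.85%), against 7.08% and 4.92% of all genes. Their median was -0.01, against 0.03 over all genes. With 1 array left out 1 to 4 fell and 0 to 2 rose. Rcan1, a calcineurin inhibitor that is itself induced through NFAT, measured 395, 441 and 387 with CsA, against 567, 705 and 621 without it. It fell by 0.63 ± 0.09 on the log2 scale (limma, adjusted p = 1.5e-05), and the groups did not overlap. At 12 h, 24 h and 48 h its differences had been -0.12 ± 0.09, -0.09 ± 0.09 and -0.11 ± 0.09, none called. Nfatc1, an NFAT factor that drives its own promoter in other cells, measured 507, 471 and 506 with CsA, against 579, 533 and 601 without it, and fell by 0.21 ± 0.06 (adjusted p = 0.014). It had been lower at each earlier time too, with differences of -0.22 ± 0.06, -0.29 ± 0.06 and -0.31 ± 0.06. The mitochondrial cyclophilin Ppif fell by 0.20 ± 0.05, and the calcineurin catalytic subunit Ppp3cb rose by 0.18 ± 0.05. These 3 small calls ended in 3 or 4 of 16 alternative settings each, at adjusted p values of up to 0.097 (Nfatc1), 0.095 (Ppif) and 0.093 (Ppp3cb). The other catalytic subunits, Ppp3ca at 0.05 ± 0.05 and Ppp3cc at 0.20 ± 0.08, and the regulatory subunit Ppp3r1 at -0.01 ± 0.06 did not pass. For Ppp3ca the 95% interval ran from -0.04 to 0.15. The other NFAT factors, Nfatc2 (-0.16 ± 0.06), Nfatc3 (-0.01 ± 0.05), Nfatc4 (0.07 ± 0.09) and Nfat5 (-0.04 ± 0.07), did not pass either, nor did the drug's main binding protein cyclophilin A, Ppia (-0.01 ± 0.05).

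Genes that other cells commonly induce through NFAT fell more often than they rose. Of 26 such genes 13 fell and 1 rose, with a median of -0.29, against 7.08% lower and 4.92% higher over all genes. The transcription factor Egr2 measured 938, 1072 and 879.5 with CsA, against 1899, 2038 and 1831 without it, a fall of 1.0 ± 0.10 (adjusted p = 1e-07). Irf4, a factor of cDC2 and activated lymphocytes, measured 128, 114 and 113 with CsA, against 193, 251 and 241 without it, and differed by -0.94 ± 0.10 (adjusted p = 7e-08). The chemokine Ccl22, made by activated dendritic cells, measured 276, 208 and 207 with CsA, against 345, 447 and 527 without it, and differed by -0.93 ± 0.13 (adjusted p = 1e-05). In all of these the 3 arrays with CsA lay below the 3 without it. The nuclear receptor Nr4a3 (-0.85 ± 0.12), cyclooxygenase 2, Ptgs2 (-0.71 ± 0.15), and the IL-2 receptor chain Il2ra (-0.67 ± 0.12) fell as well. At 12 h, 24 h and 48 h 6, 7 and 9 members had been lower and none higher, against 3.91%, 2.19% and 2.34% of all genes lower at those times.

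A smaller group fell at every time sampled. There were 54 genes lower with CsA at 12 h, 24 h, 48 h and 11 days (87 with a replicate block within each time), among them Fcmr, Fn1, Acp5, Cxcr5, Il1b and Egr2, each at least 2-fold lower at 11 days. The core letters of an NFAT site, GGAAA, were looked for in their promoters, from 250 bases before to 50 bases after the start, on both strands (as GGAAA or TTTCC). Of 63 promoters that RefSeq lists for 41 of the 54 genes, 40 held them (63.5%). The share was 61.3% of all 32851 promoters in the table, 60% for the genes tested, 59.2% for the 1411 falls and 57.7% for the 980 rises. These shares lie close together, and a match is a description of letters only. The promoters of Fcmr, Acp5, Il1b and Egr2 are shown because these genes fell at all 4 times, and that of Mcoln3 because it is the largest rise; they are from RefSeq on build GRCm38.p6, 5′ to 3′ on the gene's own strand, with the matches in capitals. Where a gene has several listed promoters (Acp5 has 3, Egr2 has 5), the first is shown.
Fcmr (GRCm38.p6 chr1:130865527-130865826, plus strand): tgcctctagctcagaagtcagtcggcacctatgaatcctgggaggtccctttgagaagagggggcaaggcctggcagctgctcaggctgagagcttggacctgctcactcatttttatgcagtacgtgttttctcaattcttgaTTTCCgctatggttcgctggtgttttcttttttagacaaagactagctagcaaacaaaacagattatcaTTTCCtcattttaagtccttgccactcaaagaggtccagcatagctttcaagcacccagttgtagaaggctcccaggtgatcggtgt
Acp5 (GRCm38.p6 chr9:22135697-22135996, minus strand): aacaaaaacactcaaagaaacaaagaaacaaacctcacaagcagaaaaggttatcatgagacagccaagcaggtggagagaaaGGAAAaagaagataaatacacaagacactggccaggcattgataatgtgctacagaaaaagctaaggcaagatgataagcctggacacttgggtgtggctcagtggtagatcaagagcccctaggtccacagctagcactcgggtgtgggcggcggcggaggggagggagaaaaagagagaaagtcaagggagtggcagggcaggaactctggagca
Il1b (GRCm38.p6 chr2:129371090-129371389, minus strand): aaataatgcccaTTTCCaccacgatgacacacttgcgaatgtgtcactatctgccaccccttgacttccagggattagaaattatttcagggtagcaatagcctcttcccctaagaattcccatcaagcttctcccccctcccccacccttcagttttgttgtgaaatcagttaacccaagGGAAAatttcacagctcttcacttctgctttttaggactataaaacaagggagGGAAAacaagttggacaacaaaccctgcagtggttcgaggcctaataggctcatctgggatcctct
Egr2 (GRCm38.p6 chr10:67535249-67535548, plus strand): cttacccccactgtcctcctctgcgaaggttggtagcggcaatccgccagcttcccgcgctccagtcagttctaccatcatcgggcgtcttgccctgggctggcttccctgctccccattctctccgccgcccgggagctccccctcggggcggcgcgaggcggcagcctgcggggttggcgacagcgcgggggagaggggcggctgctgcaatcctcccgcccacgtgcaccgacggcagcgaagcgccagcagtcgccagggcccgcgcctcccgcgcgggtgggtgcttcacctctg
Mcoln3 (GRCm38.p6 chr3:146121541-146121840, plus strand): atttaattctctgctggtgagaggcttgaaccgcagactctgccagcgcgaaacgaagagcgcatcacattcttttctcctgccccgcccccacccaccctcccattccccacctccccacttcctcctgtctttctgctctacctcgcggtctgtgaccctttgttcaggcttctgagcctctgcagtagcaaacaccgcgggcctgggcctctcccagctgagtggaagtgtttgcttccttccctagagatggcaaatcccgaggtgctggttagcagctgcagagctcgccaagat
Fcmr held 2 matches, Acp5 1 and Il1b 3, and neither Egr2 nor Mcoln3 held one in this window.

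The myeloid integrins and the receptor of the culture's own cytokine were lower with CsA. Itgax, which encodes CD11c and is carried by nearly all dendritic cells, measured 1212, 1277 and 1194 with CsA, against 2802, 2663 and 3011 without it. It fell 2.3-fold, -1.20 ± 0.05 (adjusted p = 2e-14). Itgam, which encodes CD11b, measured 1765, 1624 and 1725 with CsA, against 3476, 3523 and 3664 without it, and differed by -1.06 ± 0.05 (adjusted p = 2e-14). The spread within either group was small beside the gap between them. Flt3, the receptor of Flt3-L, measured 482, 343 and 316 with CsA, against 697, 712 and 674 without it, and differed by -0.89 ± 0.09 (adjusted p = 9.3e-08). None of the 3 genes was called at 12 h, 24 h or 48 h, and for all 3 the effect at 11 days differed from the mean of the earlier effects (Itgax by -1.19, adjusted p = 6.6e-13; Itgam by -1.07, adjusted p = 5.5e-13; Flt3 by -0.94, adjusted p = 7.8e-07).

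Among genes of cross-presenting dendritic cells, 13 of 21 fell and 0 rose, with a median of -0.38. Clec9a, a receptor for dead cells, measured 418, 246 and 247 with CsA, against 976, 922 and 831 without it, a difference of -1.63 ± 0.13 (adjusted p = 1.1e-09). The chemokine receptor Xcr1 measured 619, 273 and 349 with CsA, against 1177, 952 and 1167 without it, a difference of -1.49 ± 0.17 (adjusted p = 4.5e-07). Itgae (CD103) measured 233, 117 and 116 with CsA, against 368, 349 and 381 without it, a difference of -1.32 ± 0.16 (adjusted p = 1.4e-06). In these 3 genes the first CsA array stood between the other CsA arrays and the arrays without CsA. Without that array the differences were -1.88 (Clec9a), -1.82 (Xcr1) and -1.65 (Itgae), and the count stayed at 13. Ifi205 (-0.94 ± 0.17), the cDC1 transcription factor Batf3 (-0.42 ± 0.09) and Zbtb46, a factor of conventional dendritic cells (-0.30 ± 0.07), also fell. At 12 h, 24 h and 48 h 0, 1 and 0 of the list had been lower, against 3.91%, 2.19% and 2.34% of all genes. The set did not move as a whole: Irf8, the factor that cDC1 need to develop, differed by -0.09 ± 0.11 and the adhesion molecule Cadm1 by 0.14 ± 0.10, and neither passed.

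Genes of cDC2 split. Of 24, 11 fell and 3 rose, with a median of -0.19. The calcium-binding S100a4 measured 292, 267 and 271 with CsA, against 736, 591 and 679 without it, and differed by -1.27 ± 0.08 (adjusted p = 6.7e-12). Ccr2, the receptor that brings monocytes and pre-dendritic cells out of marrow, measured 553, 399 and 393 with CsA, against 1005, 1121 and 958 without it, and differed by -1.21 ± 0.09 (adjusted p = 2.7e-10). The lectin Cd209a, a mouse relative of DC-SIGN, measured 1175, 969 and 927 with CsA, against 1623, 1807 and 1585 without it, and differed by -0.71 ± 0.08 (adjusted p = 2.1e-07). Against these, Cd4 rose, at 579, 623 and 658 with CsA, against 348, 330.3 and 408 without it (0.78 ± 0.16). Other markers of the same cells did not pass: Sirpa was at 6053, 5810.4 and 6157 with CsA, against 6168, 5933 and 6166 without it (-0.02 ± 0.04), Clec10a differed by -0.10 ± 0.15 and Mgl2 by -0.08 ± 0.13. Clec4a4 was dim in both groups, at 49.0, 46.4 and 47.3 with CsA, against 40.3, 45.2 and 48.8 without it.

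Activation and maturation genes fell in 15 of 24 cases and rose in 0 (median -0.31; 14 fell without the first CsA array). Il12b, the shared subunit of IL-12 and IL-23, measured 281, 184 and 162 with CsA, against 314, 426 and 672 without it, a difference of -1.14 ± 0.19 (adjusted p = 8.4e-05). Ccr7, which leads mature dendritic cells to lymph nodes, measured 1089, 777 and 754 with CsA, against 1321, 1868 and 2258 without it, a difference of -1.04 ± 0.13 (adjusted p = 2.8e-06). The actin bundler Fscn1 measured 762, 524 and 485 with CsA, against 934, 1222 and 1434 without it, a difference of -1.03 ± 0.14 (adjusted p = 6.3e-06). In all 3 the first CsA array was the highest of its group and the first array without CsA the lowest of its own, so the groups came close without overlapping. Marcksl1 (-1.14 ± 0.12), the signalling inhibitor Socs2 (-1.0 ± 0.13) and Stat4 (-1.0 ± 0.16) fell too. The costimulatory genes Cd40 (-0.13 ± 0.07) and Cd80 (-0.05 ± 0.10) did not pass.

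RNA of genes that serve antigen presentation on MHC class II was lower in 11 of 16 cases and higher in 0, with a median of -0.46. The other 5 were not called, and the count of falls was also 11 without the first CsA array. The master regulator Ciita measured 419.5, 317 and 349 with CsA, against 613, 686 and 680.4 without it, a difference of -0.88 ± 0.08 (adjusted p = 4.2e-09). The class II chain H2-Aa (-0.50 ± 0.07) and the invariant chain Cd74 (-0.41 ± 0.07) fell. So did H2-DMa (-0.85 ± 0.12), H2-Oa (-0.88 ± 0.07) and H2-Ob (-1.10 ± 0.10), whose products load peptides or regulate that step. H2-Ob measured 829, 593 and 566 with CsA, against 1441, 1435 and 1328 without it. Ifi30, a thiol reductase of the loading compartment, measured 3158, 3230.2 and 3246 with CsA, against 5229.7, 5008 and 5299 without it, with hardly any spread among the CsA arrays, and differed by -0.69 ± 0.05 (adjusted p = 8.7e-11). At 12 h, 24 h and 48 h 5, 8 and 2 of the genes had been lower.

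**Figure D2:**
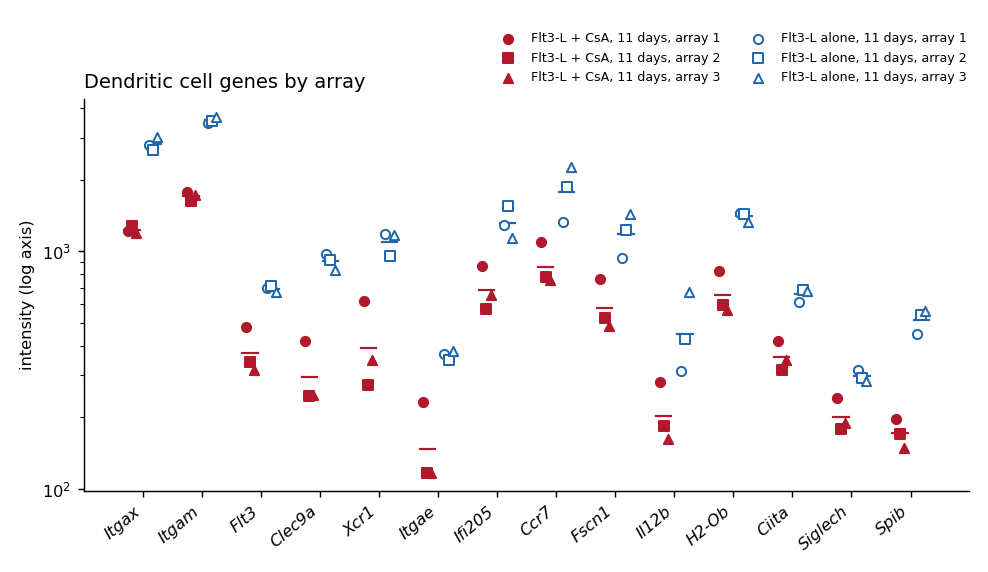
Intensity (log axis) of 14 dendritic cell genes in each array at 11 days, with CsA (filled, left) and without it (open, right); symbols give the array number and the bars are geometric means (n = 3). Itgax and Itgam are tightly grouped, while in Clec9a, Xcr1 and Itgae the first CsA array lies above the other CsA arrays.

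Plasmacytoid dendritic cell genes went both ways, 8 lower and 4 higher of 21 (median -0.04; 2 or 3 higher when 1 array was left out). Spib, a transcription factor of these cells and of B cells, measured 197, 169.9 and 149 with CsA, against 447, 539.8 and 558 without it, a difference of -1.59 ± 0.11 (adjusted p = 5.2e-11). Ly6d measured 80.4, 90.4 and 70.2 with CsA, against 180.2, 172 and 265 without it, and differed by -1.34 ± 0.13 (adjusted p = 2.9e-08). Siglech, a surface marker of these cells, measured 241, 178 and 189.7 with CsA, against 315, 294 and 285 without it, and differed by -0.57 ± 0.08 (adjusted p = 1.6e-05). Ccr9 also fell (-0.61 ± 0.14), though its first CsA array, at 399.5, lay within the range of the arrays without CsA, and the call ended in a fit of only the 6 arrays (adjusted p = 0.12). In the other direction Cox6a2, a cytochrome c oxidase subunit, measured 602, 1103 and 665 with CsA, against 273, 235 and 233 without it, and rose by 1.63 ± 0.15 (adjusted p = 8.8e-09). The restriction factor Bst2 (0.18 ± 0.05) and the RNA sensor Tlr7 (0.28 ± 0.08) rose slightly, and the lineage factor Tcf4, also called E2-2, did not pass (0.11 ± 0.05). The summed intensity of the list lay between 6766 and 6993 with CsA and between 6721 and 6973 without it, so its total overlapped.

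Macrophage genes mostly did not pass: 24 of 32 were not called, 5 fell and 3 rose, with a median of 0.07. The receptor of macrophage growth factor, Csf1r, measured 4585, 4321 and 4660.4 with CsA, against 4438, 4034 and 4589.8 without it (0.06 ± 0.06), and Adgre1 measured 4534, 4489 and 4662 with CsA, against 4586, 4294 and 4433 without it (0.04 ± 0.06). Mertk, which clears dying cells, differed by 0.12 ± 0.15, the complement gene C1qa by 0.19 ± 0.15 and Fcgr1 by 0.16 ± 0.08. The list's summed intensity lay between 119507 and 121172 with CsA and between 112758 and 117197 without it. Of the called genes, the transcription factor Maf measured 2668, 2512 and 2649 with CsA, against 1930.4, 1803 and 1874 without it, and rose by 0.48 ± 0.08 (adjusted p = 0.00012), and the sialic acid receptor Siglec1 rose by 0.31 ± 0.09. The falls were Ccr2 as above, the chemokine receptor Cx3cr1, the lysozyme Lyz1, Mmp12 and the coagulation factor subunit F13a1, which was at 56.3, 65.2 and 64.5 with CsA, against 103, 108 and 96.4 without it (-0.73 ± 0.06). With 1 array left out 3 or 4 of the list fell and 1 to 3 rose. Mmp12, the macrophage elastase, measured 5325, 5434 and 5269.9 with CsA, against 7003, 7271 and 7149.5 without it. The groups did not overlap, but its fall of 0.42 ± 0.13 was not called once any 1 of the 6 arrays was left out.

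Secreted proteins of the tissue matrix and its breakdown were lower. Of 24 proteolysis genes, 13 fell and 0 rose, with a median of -0.43. Fibronectin, Fn1, measured 707, 932 and 671 with CsA, against 2916, 3178 and 2796 without it, a 3.88-fold fall (-1.96 ± 0.11, adjusted p = 1.3e-12). The collagenase Mmp13 measured 183, 213 and 192 with CsA, against 766, 631 and 1006 without it, a difference of -2.01 ± 0.12 (adjusted p = 6.7e-12). The gelatinase Mmp9 measured 866, 1135 and 674 with CsA, against 2184, 2064 and 2114 without it, a difference of -1.28 ± 0.11 (adjusted p = 4.7e-09). No CsA array reached an array without CsA in any of them, which the rule for the largest falls required of Fn1 and Mmp13. Coagulation factor X, F10 (-1.47 ± 0.08), and the metalloproteinases Mmp25 (-1.10 ± 0.15), Mmp19 (-0.81 ± 0.09) and Mmp8 (-0.75 ± 0.08) fell also. Lysyl oxidase, Lox, which cross-links collagen and elastin, went the other way at 194, 235 and 248 with CsA, against 48.3, 62.9 and 50.5 without it, a 4.19-fold rise (2.07 ± 0.13, adjusted p = 1.4e-11). The secreted protease Htra1 was dim and rose, at 167, 148 and 180.3 with CsA, against 68.7, 73.4 and 88.4 without it (1.11 ± 0.08).

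Osteoclasts come from the same precursors and need NFATc1. Of 16 osteoclast genes 6 fell and 0 rose (median -0.14). Tartrate-resistant acid phosphatase, Acp5, measured 519, 500.4 and 489.7 with CsA, against 1798, 2063 and 1807 without it, a difference of -1.91 ± 0.07 (adjusted p = 9.9e-16). Dcstamp, needed for fusion of precursors, measured 89.1, 74.2 and 80.6 with CsA, against 300.3, 246 and 356 without it, a difference of -1.87 ± 0.11 (adjusted p = 4.6e-12), and carbonic anhydrase 2, Car2, differed by -1.38 ± 0.16. Acp5 had been lower at every earlier time, with differences of -0.34 ± 0.07, -0.35 ± 0.07 and -0.41 ± 0.07, while Dcstamp had not been called at any. Among 20 genes of alternative macrophage activation 7 fell and 1 rose (median -0.09), with Fn1, Egr2, Irf4, Ccl22, Cd209a and the chitinase-like Chil3 (-0.80 ± 0.12) leading.

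**Figure D3:**
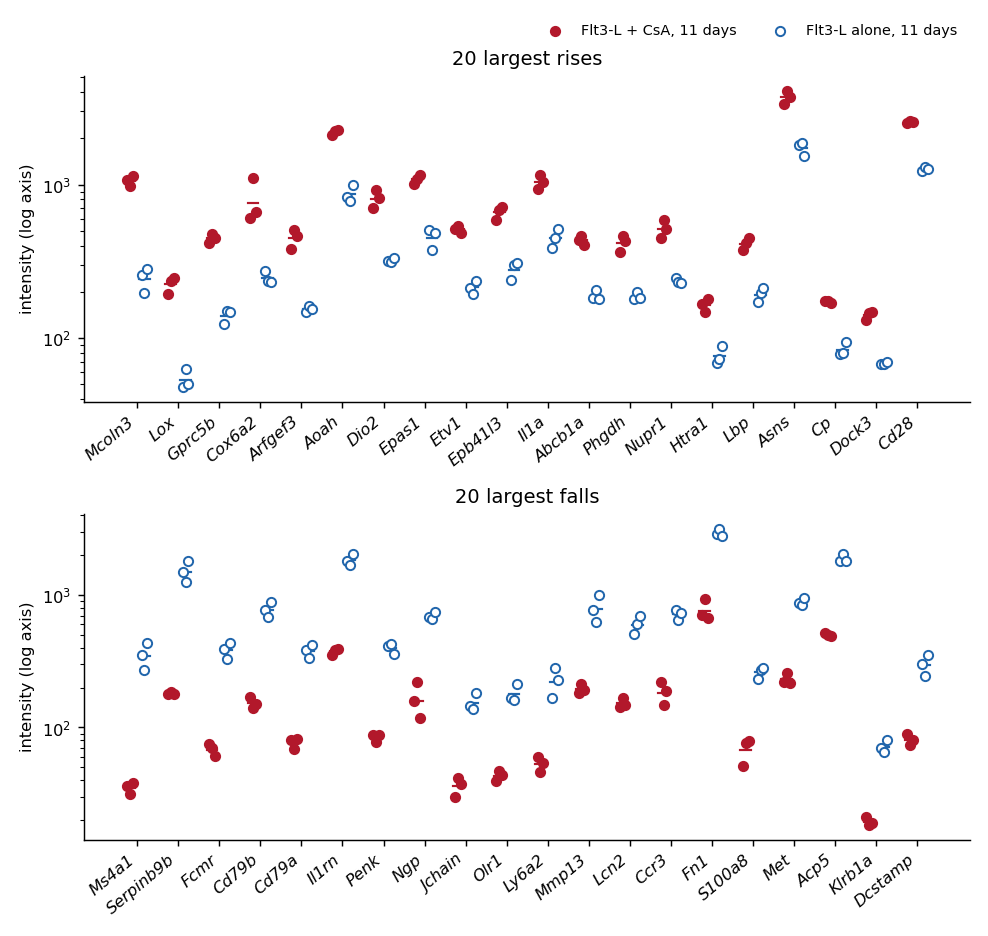
Intensity (log axis) of the 20 largest rises (top) and 20 largest falls (bottom) in each array at 11 days, with CsA (filled, left) and without it (open, right); bars are geometric means (n = 3). By the rule that chose them no gene's groups overlap, and Ms4a1, Olr1, Jchain and Klrb1a lie below an intensity of 50 in the arrays with CsA.

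Neutrophil genes were lower in the CsA cultures. Of 22 genes of maturing and mature neutrophils 13 fell and 1 rose, with a median of -0.77, and their summed intensity lay between 3768 and 4537 with CsA and between 7074 and 7962 without it. Neutrophilic granule protein, Ngp, measured 159, 219.8 and 117 with CsA, against 687, 659.5 and 746 without it, a difference of -2.12 ± 0.12 (adjusted p = 5.4e-12). The siderophore-binding Lcn2 measured 143, 166 and 148 with CsA, against 508, 608 and 690.2 without it, a difference of -1.97 ± 0.07 (adjusted p = 1.6e-15). The calprotectin subunit S100a8 measured 51.6, 76.4 and 78.8 with CsA, against 232, 273 and 280.0 without it, a difference of -1.95 ± 0.10 (adjusted p = 4.9e-13). These are residual levels: in unstimulated marrow Ngp averaged 6935, Lcn2 8777 and S100a8 5957. Ltf (-1.69 ± 0.07), S100a9 (-1.66 ± 0.07), Retnlg (-1.29 ± 0.09) and Ly6g (-1.26 ± 0.13) fell too, the last at 26, 33.4 and 22.2 with CsA, against 80.7, 50 and 65.3 without it. At 12 h, 24 h and 48 h 2, 4 and 3 of these genes had been lower. Camp was at 96.4, 133 and 97.1 with CsA, against 106, 112 and 113 without it, and did not pass. The receptor for granulocyte growth factor, Csf3r, rose, at 879.9, 874 and 901 with CsA, against 623, 601 and 726 without it (0.45 ± 0.08).

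Of 15 primary granule genes 5 fell and 0 rose (median -0.14), led by Nkg7 at 47.9, 48.0 and 53 with CsA, against 139, 74.6 and 213 without it (-1.39 ± 0.20) and Plac8 at 237, 165 and 156 with CsA, against 419.5, 442 and 473 without it (-1.28 ± 0.10). Myeloperoxidase, Mpo, was at 70.1, 86.3 and 73.7 with CsA, against 81.7, 96.2 and 107 without it, with overlap, and its call (-0.31 ± 0.08) ended in 3 alternatives. Eosinophil, basophil and mast cell genes fell in 9 of 20 cases and rose in 0 (median -0.22; summed intensity between 1419 and 1529.8 with CsA and between 2266 and 2529.7 without it). Ccr3, the eotaxin receptor, measured 222, 147 and 189 with CsA, against 773, 652 and 736 without it, a difference of -1.97 ± 0.13 (adjusted p = 7e-11). The IL-5 receptor Il5ra measured 42.5, 36.8 and 38.4 with CsA, against 107, 86.9 and 119 without it, a difference of -1.40 ± 0.13 (adjusted p = 1.6e-08). Of the list 1, 11 and 13 genes had been lower at 12 h, 24 h and 48 h (3, 10 and 13 with a replicate block within each time). Both receptors had been lower at 24 h and 48 h, with differences of -2.00 ± 0.13 (Ccr3) and -1.40 ± 0.13 (Il5ra) at 48 h. Kit (-1.04 ± 0.12), mast cell carboxypeptidase Cpa3 (-1.03 ± 0.12), basophil protease Mcpt8 (-0.82 ± 0.16) and eosinophil major basic protein Prg2 (-0.80 ± 0.10) fell at low levels. The platelet chemokines Ppbp, at 182, 102 and 135 with CsA, against 356, 263 and 309 without it (-1.17 ± 0.14), and Pf4 (-0.62 ± 0.13) were the 2 of 12 megakaryocyte genes to fall, and none rose (median -0.07). Of 15 erythroid genes 2 fell, Car2 and Alas2 (-0.28 ± 0.06), and the transferrin receptor Tfrc rose, at 4472, 4058 and 4571 with CsA, against 3049.6, 3239 and 3280.2 without it (0.45 ± 0.06); the median was 0.00. The summed intensity of the erythroid list was higher, between 5219.6 and 5809 with CsA and between 4353 and 4632 without it. Tfrc alone made up most of that sum in every array, so the sum says little about the other members. The falls made up 16.7% of the megakaryocyte list and 13.3% of the erythroid list, against 7.08% of all genes. The erythroid rise made up 6.67% of its list, against 4.92% of all genes.

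The largest fall of all belonged to a B cell gene. Of 22 B lineage genes 13 fell and 2 rose, with a median of -0.52 and a summed intensity between 4613 and 4992 with CsA and between 7327 and 7932 without it. Ms4a1, which encodes CD20, measured 36.1, 31.5 and 38.1 with CsA, against 356, 271 and 439 without it. The B cell receptor chain Cd79b measured 171, 139 and 149.9 with CsA, against 776, 688 and 882 without it, and its partner Cd79a 80.3, 68.7 and 82.1 with CsA, against 386, 335 and 422 without it. The IgM receptor Fcmr measured 74.7, 69.5 and 61.0 with CsA, against 394, 327 and 439 without it. All 3 CsA arrays lay far below the others in each, with log2 differences of -3.31 ± 0.15 (adjusted p = 2.7e-14) for Ms4a1, -2.35 ± 0.10 (adjusted p = 1.3e-14) for Cd79b, -2.30 ± 0.10 (adjusted p = 2.2e-14) for Cd79a and -2.49 ± 0.12 (adjusted p = 6.5e-14) for Fcmr. Members that were not called include Vpreb1, a surrogate light chain gene of early B cells that was dim in both groups (0.09 ± 0.12). Jchain, which joins IgM and IgA units, measured 29.7, 41.8 and 37.7 with CsA, against 145, 138 and 182 without it (-2.10 ± 0.26). Fcmr had been lower at each earlier time. Ms4a1 had differed by -0.26 ± 0.15, -0.32 ± 0.15 and -0.29 ± 0.15 at 12 h, 24 h and 48 h, which was not called, but was called lower at each with the replicate number as a block within each time. Of the list, 3, 8 and 14 genes had been lower at 12 h, 24 h and 48 h, or 6, 13 and 17 with that block, and none higher without it.

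Several of these levels were dim. The mark for dim genes was set so that 33.3% of all genes lay below it by mean level, which put it at an intensity of 75.0. The deposited values carry a background that was not measured here. A fold between such levels is therefore a ratio of intensities and not of RNA. Among the genes named here as falling, all 3 CsA arrays lay below that level for Car2, Cd3g, Cd55, Chil3, Cpa3, Cxcl9, Cxcr5, Emcn, F13a1, Fcmr, Gzmb, Il1f9, Il2rb, Il5ra, Jchain, Klrb1a, Ltf, Ly6a2, Ly6g, Mcpt8, Ms4a1, Myb, Ncr1, Nkg7, Nqo1, Olr1, Retnlg and S100a9. Among those named as rising, all 3 arrays without CsA did for Dock3 and Lox.

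T and NK cell genes fell in 8 of 23 cases and rose in 1 (median -0.12; summed intensity between 2471 and 2627 with CsA and between 2719 and 3253 without it). The rise was Cd4, given above among cDC2 genes. With dim genes filtered out 5 of the list fell. Cd3g measured 33.1, 39.0 and 49.1 with CsA, against 89.2, 63.4 and 133 without it (-1.19 ± 0.19), and the adaptor Lat 250.2, 335 and 281 with CsA, against 529, 521 and 635 without it (-0.96 ± 0.10). The NK receptor Klrb1a, which is no member of the list but one of the 20 largest falls, measured 21.2, 18.4 and 18.9 with CsA, against 69.5, 65.6 and 79.9 without it (-1.88 ± 0.08). In Cd3g the arrays without CsA spread widely. Granzyme B, Gzmb (-0.85 ± 0.17), Il2rb (-0.92 ± 0.13) and the NK receptor Ncr1 (-0.80 ± 0.17) fell too, though the calls for Gzmb and Ncr1 ended in a fit of only the 6 arrays (adjusted p = 0.061 and 0.099). Cd3e did not pass (-0.06 ± 0.13). Progenitor genes fell in 7 of 20 and rose in 3 (median -0.01; 4 to 6 fell when 1 array was left out, with 4 without the first CsA array or without the second array that had none), among them Cd34 at 73.3, 81.2 and 56.6 with CsA, against 157, 180.3 and 150.4 without it (-1.22 ± 0.09) and the factor Myb (-0.65 ± 0.05). Of 20 stromal and vessel genes 4 fell, with Pecam1 (-0.86 ± 0.08) and Emcn (-0.71 ± 0.16) first, and 3 rose (2 or 3 fell when 1 array was left out; median 0.08, mean 0.04; summed intensity between 2666 and 3117 with CsA and between 2507 and 2819 without it). The matrix proteoglycan Dcn, a fibroblast product, varied by array, at 458, 97.3 and 193 with CsA, against 48.1, 74.7 and 159.5 without it. Its difference of 1.30 ± 0.35 was 0.72 without the first CsA array (adjusted p = 0.14). How far the share of each cell type enters the other differences was not tested.

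Several of the largest falls belonged to no lineage list. Serpinb9b, of the serpin B9 family of granzyme inhibitors, measured 181, 185 and 179 with CsA, against 1497, 1256 and 1801 without it. The 3 CsA values were nearly equal, and the 8.27-fold fall (-3.05 ± 0.10, adjusted p = 1.5e-16) came at a gene that differed by -0.17 ± 0.10, 0.01 ± 0.10 and 0.22 ± 0.10 at the earlier times. It had averaged 73.6 in unstimulated marrow, so the cultures without CsA had gained it and those with CsA had gained far less. Penk, the precursor of enkephalins, measured 88.0, 77.4 and 88.1 with CsA, against 413, 430.2 and 362 without it (-2.25 ± 0.12, adjusted p = 1.6e-12). Met, the receptor of hepatocyte growth factor, measured 221, 260.0 and 216 with CsA, against 870.4, 843 and 953 without it (-1.94 ± 0.10, adjusted p = 4.1e-13). In both the CsA values were tightly grouped and well below the others. Olr1, a lectin-like receptor for oxidised LDL, measured 39.2, 46.7 and 43.9 with CsA, against 168, 162 and 214 without it (-2.06 ± 0.09, adjusted p = 2.6e-14). The Ly6 family gene Ly6a2 measured 59.8, 46.4 and 53.6 with CsA, against 167, 281 and 227 without it (-2.05 ± 0.11, adjusted p = 1.6e-12). That the CsA arrays were the lower ones without overlap in all 5 follows from the rule that chose the largest falls.

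The largest rise was Mcoln3, a cation channel of endosomes and lysosomes, at 1078, 980.2 and 1131 with CsA, against 257, 197 and 282 without it. The CsA arrays were 4.37-fold higher (2.13 ± 0.10, adjusted p = 1.3e-13). It had risen at 24 h (0.39 ± 0.10) and 48 h (0.73 ± 0.10) as well, by less. Gprc5b, an orphan receptor, measured 419.8, 474 and 447 with CsA, against 124, 151 and 148 without it (1.67 ± 0.10, adjusted p = 1.4e-11). Arfgef3, a relative of exchange factors for ARF proteins, measured 379, 509.9 and 462 with CsA, against 148, 161 and 156 without it (1.53 ± 0.08, adjusted p = 1.6e-12). That the CsA arrays lay above the arrays without it in all 3 genes follows from the rule that chose the largest rises. Aoah, which removes acyl chains from bacterial endotoxin, measured 2099, 2225 and 2271 with CsA, against 825, 784 and 999 without it (1.35 ± 0.08, adjusted p = 6.7e-12), and the endotoxin-binding protein Lbp 376, 414 and 452 with CsA, against 172, 197 and 211 without it (1.1 ± 0.08, adjusted p = 2.6e-10). The drug exporter Abcb1a, P-glycoprotein, which transports CsA among others, measured 433, 464 and 407 with CsA, against 182, 205 and 181 without it (1.2 ± 0.07, adjusted p = 9.1e-12). The thyroid hormone-activating enzyme Dio2 (1.33 ± 0.10), the hypoxia factor Epas1 (1.26 ± 0.09), the ETS factor Etv1 (1.26 ± 0.08), the cytoskeletal Epb41l3 (1.24 ± 0.21), ceruloplasmin, Cp (1.04 ± 0.07), and the exchange factor Dock3 (1.03 ± 0.09) rose too. Cd28, best known as the costimulatory receptor of T cells, measured 2533, 2609 and 2541 with CsA, against 1222, 1294 and 1256 without it (1.03 ± 0.07, adjusted p = 3.7e-11), with almost no spread, and was one of 30 genes higher at all 4 times.

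Cytokine genes of the IL-1 family moved in opposite directions. The receptor antagonist Il1rn measured 356, 388 and 391 with CsA, against 1812, 1696 and 2053 without it, a 4.89-fold fall (-2.29 ± 0.07, adjusted p = 1e-16). Il1b measured 109, 96.6 and 93.9 with CsA, against 190.0, 202 and 237 without it, a difference of -1.07 ± 0.19 (adjusted p = 0.00024). Il1a measured 943, 1156 and 1035 with CsA, against 387, 449 and 512 without it, a rise of 1.22 ± 0.14 (adjusted p = 5.9e-07). The agonist Il1a was thus the only one of the 3 with CsA arrays above the others. Il1b had differed by -1.85 ± 0.19 at 24 h and -1.73 ± 0.19 at 48 h. Il1f9, the IL-36 gamma gene, fell (-1.61 ± 0.12), as did Csf1, the macrophage growth factor, at 126, 192 and 145 with CsA, against 323, 392 and 332 without it (-1.19 ± 0.12). Over the 26 genes 9 fell and 2 rose (1 to 4 with 1 array left out), with a median of 0.04 and a mean of -0.26. Of 25 chemokine genes 9 fell and 2 rose (median -0.08; 1 or 2 rose with 1 array left out). Ccl5 measured 1389.6, 1084 and 1078 with CsA, against 2174, 2900.1 and 3239 without it (-1.22 ± 0.12) and Cxcl14 169, 242 and 180.0 with CsA, against 504, 496 and 488 without it (-1.35 ± 0.10). In both the groups lay apart. The interferon-induced Cxcl9 fell (-1.10 ± 0.22), though its arrays without CsA ran from 78.9 to 246, and the call ended in a fit of only the 6 arrays (adjusted p = 0.079). Of 21 chemokine and chemoattractant receptors 11 fell and 2 rose (median -0.32), with Ccr3, Xcr1, Ccr2, Cmklr1 (-1.21 ± 0.09), Ccr1 (-1.11 ± 0.13) and Cxcr5 (-1.25 ± 0.10) leading. Cxcr5 was dim, at 22.5, 21.2 and 25.1 with CsA, against 56.0, 45.5 and 63.5 without it.

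Surface receptors of myeloid cells were divided. Among 26 C-type lectins 11 fell and 2 rose (median -0.09), with Clec9a, Klrb1b (-0.97 ± 0.15), Clec2i (-0.96 ± 0.09) and Dectin-2, Clec4n (-0.76 ± 0.13), first. Among 32 Fc and paired receptors 9 fell and 6 rose (median -0.02). Within the CD300 family Cd300ld measured 3174, 3373 and 3005 with CsA, against 4867, 5326 and 4679.7 without it (-0.64 ± 0.13), while the inhibitory Cd300lf rose, at 217, 262 and 254 with CsA, against 112, 133 and 157 without it (0.87 ± 0.10). Fcrls (-1.24 ± 0.12) and Treml4 (-0.93 ± 0.10) fell. Among 23 pattern receptors 5 fell and 4 rose (median -0.03), but with 1 array left out 2 to 5 fell and 2 to 4 rose. The falls numbered 2 without CsA array 2, without CsA array 3 or without array 3 of those that had none, and the rises 2 without the first array of either group. Tlr2, the receptor for bacterial lipoproteins, measured 732, 682 and 790.2 with CsA, against 438, 341 and 456 without it, a rise of 0.84 ± 0.10 (adjusted p = 8.7e-07), and the endotoxin receptor Tlr4 rose by 0.36 ± 0.09. The DNA pathway adaptor Sting1 measured 961, 862 and 952 with CsA, against 1271, 1369 and 1344 without it, a fall of 0.52 ± 0.07. The calls for Tlr3 (-0.33 ± 0.11) and Tlr7 ended in 7 and 5 alternatives. Among 20 growth factor receptors 7 fell and 4 rose (median -0.10), with Il5ra, Il21r at 227, 244 and 232 with CsA, against 480.3, 489.5 and 649.9 without it (-1.19 ± 0.09), Kit and Flt3 falling most.

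Interferon-stimulated genes fell in 8 of 21 cases and rose in 0 (median -0.17; between 4 and 7 fell when 1 array was left out). Ifi27l2a measured 211, 203 and 193 with CsA, against 607, 541 and 654 without it (-1.57 ± 0.16, adjusted p = 4.7e-08). The antiviral Mx1 measured 109.5, 85.3 and 96.9 with CsA, against 176, 194 and 219 without it (-1.01 ± 0.18, adjusted p = 0.00029), and the signalling genes Usp18 (-0.63 ± 0.14) and Stat2 (-0.42 ± 0.07) fell too. In Ifi27l2a and Mx1 the CsA arrays lay far below the others. Ifit2 did not overlap between groups, at 237, 202 and 220.0 with CsA, against 248, 269 and 364 without it, and did not pass (-0.40 ± 0.18). Of 18 complement genes 4 fell and 1 rose (median 0.03, mean -0.13). The falls were led by the complement receptor chains Itgax and Itgam and included their partner Itgb2 (-0.31 ± 0.04) and the dim Cd55 (-0.83 ± 0.12), and the rise was properdin, Cfp, at 6092, 6006 and 6295 with CsA, against 4812, 4707 and 4981 without it (0.34 ± 0.05).

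Sterol synthesis genes were lower at 11 days, after being higher early on. Of 19 cholesterol synthesis genes 10 fell and 0 rose, with a median of -0.20. Squalene synthase, Fdft1, measured 641, 686 and 660.2 with CsA, against 877, 951 and 974 without it (-0.49 ± 0.06, adjusted p = 3.7e-07). The demethylase Cyp51 measured 374, 396 and 411 with CsA, against 517, 548 and 537 without it (-0.44 ± 0.07, adjusted p = 3.6e-05), and squalene epoxidase, Sqle, 562, 604 and 609.8 with CsA, against 818, 729 and 776 without it (-0.39 ± 0.07, adjusted p = 0.00024). The falls were small and tight, with no overlap, and Hsd17b7 (-0.47 ± 0.08), Mvd (-0.35 ± 0.06), Idi1 (-0.32 ± 0.06) and the regulator Srebf2 (-0.20 ± 0.04) fell as well. Earlier the same list had been higher with CsA: 11, 13 and 3 of the genes at 12 h, 24 h and 48 h, with none lower, against 2.82%, 1.6% and 2.17% of all genes. The effect at 11 days was below the average of the earlier times for 15 of the 19 genes, against 6.7% of all genes.

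Of 21 lipid handling and nuclear receptor genes 5 rose and 1 fell (median 0.14; 3 rose without the third CsA array). Stearoyl-CoA desaturase, Scd1, measured 1476, 1139.8 and 1493 with CsA, against 1018, 749 and 888 without it, a rise of 0.63 ± 0.11 (adjusted p = 0.00011), after being lower at 24 h (-0.99 ± 0.11) and 48 h (-0.84 ± 0.11). The oxysterol receptor Nr1h3, LXR alpha, measured 1386, 1333 and 1457 with CsA, against 1008, 1086 and 1023 without it, a rise of 0.42 ± 0.08 (adjusted p = 0.00061). Srebf1, a target of that receptor in liver and other tissues, rose by 0.31 ± 0.06, a call that also ended in the fit of 6 arrays (adjusted p = 0.061). Leukotriene and prostaglandin genes fell in 10 of 23 cases and rose in 0 (median -0.12). Alox5, the first enzyme of leukotriene synthesis, measured 100.3, 89.9 and 96.5 with CsA, against 176, 149.6 and 187 without it (-0.83 ± 0.08, adjusted p = 1e-08), and its partner Alox5ap 2545, 2568 and 2514 with CsA, against 3437, 3489 and 3689 without it (-0.48 ± 0.05, adjusted p = 1.1e-07). The platelet-activating factor hydrolase Pla2g7 (-0.79 ± 0.07), the prostaglandin-degrading Hpgd (-0.79 ± 0.10) and the leukotriene-cleaving peptidase Dpep2 (-0.49 ± 0.05) fell, and these 3 were lower at all 4 times.

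The ATF4 amino acid response was the list with most rises, 10 of 24 against 1 fall, with a median of 0.12, and 10 rose under every one of the 16 alternatives. Asparagine synthetase, Asns, measured 3343, 4089 and 3721 with CsA, against 1824, 1867 and 1542 without it (1.09 ± 0.07, adjusted p = 8.9e-12). Phgdh, the first enzyme of serine synthesis, measured 365, 461 and 428 with CsA, against 179, 199 and 182 without it (1.16 ± 0.09, adjusted p = 5.6e-10). The stress regulator Nupr1 measured 449.9, 588 and 514 with CsA, against 245, 232 and 228 without it (1.13 ± 0.08, adjusted p = 2.1e-10). In each the groups were well apart. The pseudokinase Trib3 (0.83 ± 0.11), the glutathione-degrading Chac1 (0.90 ± 0.11) and the mTORC1 inhibitor Sesn2 (0.54 ± 0.08) rose, as did Ddit3, Psat1, Ern1 and Atf4 itself (0.33 ± 0.05). Chaperones of the endoplasmic reticulum, named here after their values were seen, did not pass: Hspa5 differed by -0.07 ± 0.06 and Hsp90b1 by -0.09 ± 0.06. At 12 h, 24 h and 48 h 10, 10 and 8 members had been higher and none lower, and Trib3 and Sesn2 were called at each.

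The one fall in that list was the cystine transporter Slc7a11, which is also a target of the antioxidant factor NRF2. It measured 367, 407 and 382 with CsA, against 978, 958 and 1090.3 without it (-1.39 ± 0.10, adjusted p = 8.5e-11). Of 19 NRF2 genes 8 fell and 0 rose (median -0.23). Srxn1, which repairs peroxiredoxins, measured 958, 1035 and 1087 with CsA, against 1849, 1955 and 2012 without it (-0.92 ± 0.06, adjusted p = 1e-11), and Gclm, of glutathione synthesis, 1319, 1436 and 1560.1 with CsA, against 2369.9, 2167 and 2544 without it (-0.71 ± 0.07, adjusted p = 2.1e-08). The glutathione transferase Gsta3 (-1.32 ± 0.11), the quinone reductase Nqo1 (-1.17 ± 0.16) and thioredoxin reductase, Txnrd1 (-0.51 ± 0.05), fell with no overlap. At 12 h, 24 h and 48 h 1, 0 and 0 of the list had been lower and 1, 1 and 3 higher. Of all genes 2.82%, 1.6% and 2.17% had been higher at those times. With a replicate block within each time 1, 3 and 4 of the list had been higher. Glucose genes split, 6 lower and 4 higher of 23 (median -0.06; 2 higher without the second array of either group). The glucose transporter Slc2a1 measured 1413, 1589 and 1489 with CsA, against 2463, 2263 and 2454 without it (-0.68 ± 0.08, adjusted p = 7.7e-07), and Slc2a3 (-0.68 ± 0.10) and the glycolysis regulator Pfkfb3 (-0.51 ± 0.06) fell, while Vegfa rose by 0.34 ± 0.06.

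Cell cycle genes differed little at 11 days. Of 28 G1 and S phase genes 3 rose (10.7%) and 2 fell (7.14%), with a median of 0.05. Of 24 G2 and M phase genes 2 rose (8.33%) and 0 fell, with a median of 0.07. Over all genes 4.92% rose and 7.08% fell. With 1 array left out 1 to 4 G1 and S phase genes rose and 0 to 3 G2 and M phase genes, and none of either rose in a fit of only the 6 arrays. The G2 and M phase calls, Ccnb2 and Tpx2, ended in 7 and 6 of the alternatives (adjusted p of up to 0.15 and 0.14). Cdk4 measured 3305, 3438 and 3408 with CsA, against 3259, 3099 and 3239 without it, a difference of 0.08 ± 0.05 with a 95% interval from -0.02 to 0.18, and was not called. Cdk6 measured 1911, 2002 and 1916 with CsA, against 1896, 1973 and 1833 without it, a difference of 0.03 ± 0.05 with an interval from -0.07 to 0.14, and was not called either. The cyclins Ccnd2, at 409.5, 407 and 387 with CsA, against 467, 529.8 and 581 without it (-0.39 ± 0.07, adjusted p = 0.0002), and Ccnd3, at 494, 445 and 477 with CsA, against 568, 579 and 543 without it (-0.26 ± 0.06, adjusted p = 0.0025), fell, and Ccnd1 did not pass (-0.15 ± 0.07). Of 9 CDK inhibitor and pocket protein genes (median -0.03, mean 0.01) only Cdkn2c, p18, was called, at 781, 712 and 747 with CsA, against 585, 575 and 605 without it (0.34 ± 0.06, adjusted p = 0.00019); Cdkn1b (-0.06 ± 0.06) and Rb1 (-0.04 ± 0.04) did not pass. Limma called none of 18 ribosome biogenesis genes (median -0.02; 1 was at an unadjusted p below 0.05), Myc among them (0.08 ± 0.07).

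Of 16 p53 target genes 7 fell and 1 rose (median -0.20). The antiproliferative Btg2 measured 682, 512 and 556 with CsA, against 1168, 1081 and 1101 without it (-0.95 ± 0.08, adjusted p = 2.2e-09), and Phlda3 (-0.77 ± 0.09) and the cell death gene Pmaip1 (-0.72 ± 0.07) fell. The rise was Sesn2, which ATF4 also drives. Of 44 lineage transcription factors 18 fell and 2 rose (median -0.14), with Spib, Egr2, Irf4, Bhlhe40 at 552, 589.9 and 502 with CsA, against 801, 998 and 957 without it (-0.74 ± 0.09), Bcl11a (-0.62 ± 0.08) and Egr1 (-0.59 ± 0.12) first. Lysosomal genes were close to level: 3 of 23 rose, 0 fell and the median was 0.03, with 1 to 4 higher when 1 array was left out. The cholesterol exporter of lysosomes, Npc1, rose by 0.23 ± 0.05, at 4572, 4629 and 4695 with CsA, against 4077, 3829.9 and 3944 without it.

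**Figure D4:**
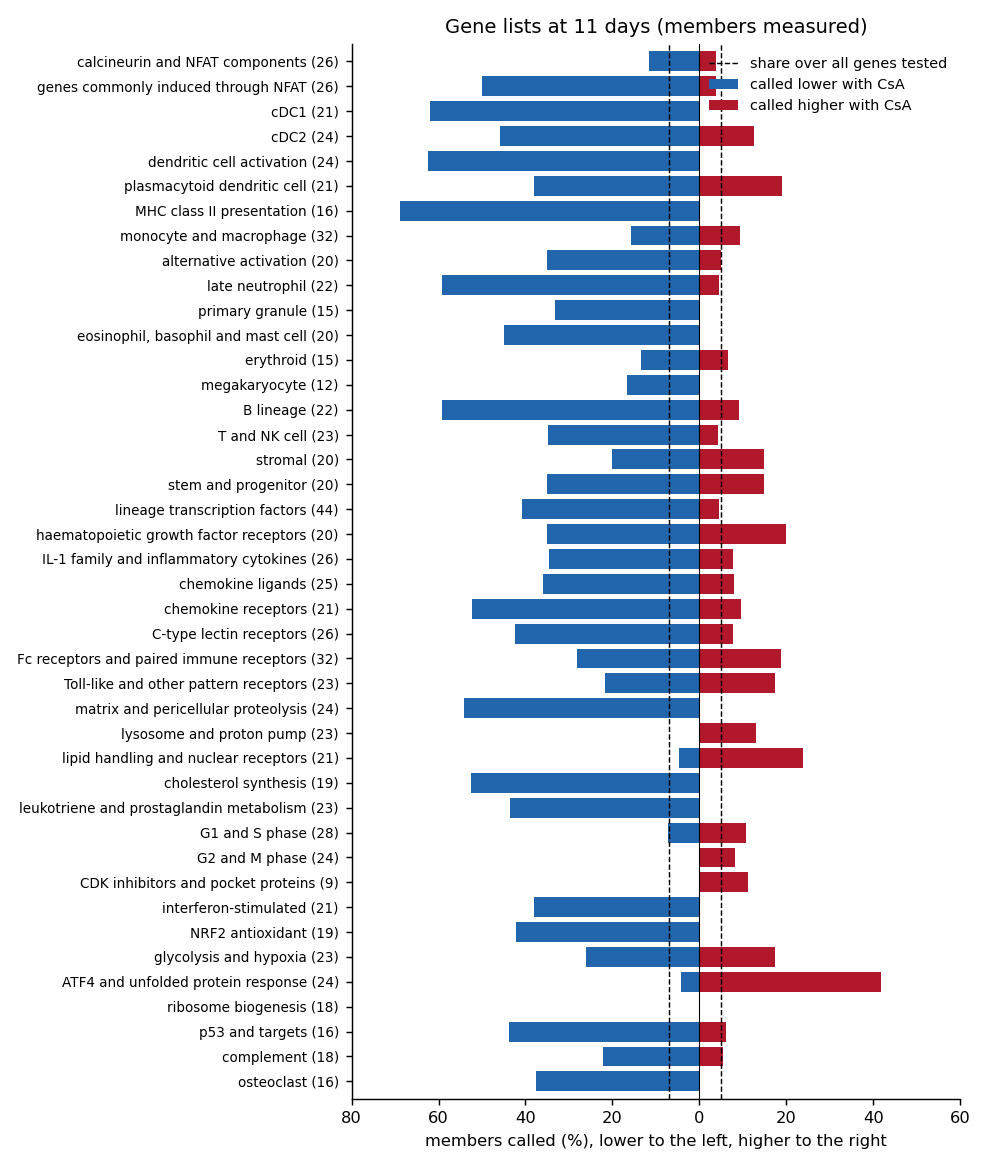
Share of the measured members of 42 gene lists called lower (left) or higher (right) with CsA at 11 days; dashed lines give the shares over all genes, 7.08% lower and 4.92% higher. MHC class II (11 of 16), dendritic cell activation (15 of 24) and cDC1 genes (13 of 21) reach furthest to the left, and ATF4 genes (10 of 24) furthest to the right.

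The comparison at 11 days called more genes than those at 12 h (562 higher and 779 lower, 2.82% and 3.91%), 24 h (318 and 436, 1.6% and 2.19%) and 48 h (432 and 467, 2.17% and 2.34%). Falls of at least 2-fold numbered 5, 17 and 23 at those times (0.0251%, 0.0853% and 0.115% of all genes) and 150 at 11 days. Of the 1411 falls at 11 days, 117 had also been lower at 12 h, 182 at 24 h and 200 at 48 h. Those are 8.29%, 12.9% and 14.2% of the list at 11 days, and 15%, 41.7% and 42.8% of the lists at the earlier times. Of the 980 rises, 86, 79 and 124 had been higher at 12 h, 24 h and 48 h, or 8.78%, 8.06% and 12.7%. Those are 15.3%, 24.8% and 28.7% of the earlier lists. Same-numbered arrays deviated together at 24 h, more weakly at 12 h, and at 48 h only for those numbered 1. With a replicate block within each time 448 genes were higher and 593 lower at 24 h, and 571 higher and 627 lower at 48 h. The block moved 12 h most, to 933 higher and 1617 lower, against 1328 higher and 1558 lower at 11 days in the same fit. The falls at 11 days shared with 12 h were then 185, and the shared rises 131.

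The gap between the effect at 11 days and the average effect of the earlier times was itself tested. It was positive for 1039 genes (5.21%) and negative for 1335 (6.7%) at an adjusted p below 0.05, and positive for 690 without the third CsA array and for 1626 with a replicate block within each time. Late falls by this test included Serpinb9b, Ngp, Mmp13, Slc7a11 and Itgax. For other genes that fell at 11 days no difference from the earlier mean was called: Il1b (0.42 ± 0.22), Ptgs2 (-0.07 ± 0.17), Ccl22 (-0.13 ± 0.15) and Cxcr5 (-0.28 ± 0.11), the last of which was called with that block. Rises with no called difference from the earlier mean included Trib3 (0.15 ± 0.12) and Sesn2 (0.17 ± 0.09), whereas Asns rose by more at 11 days (0.66 ± 0.08, adjusted p = 9e-07). The time between 48 h and 11 days was not sampled.

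**Figure D5:**
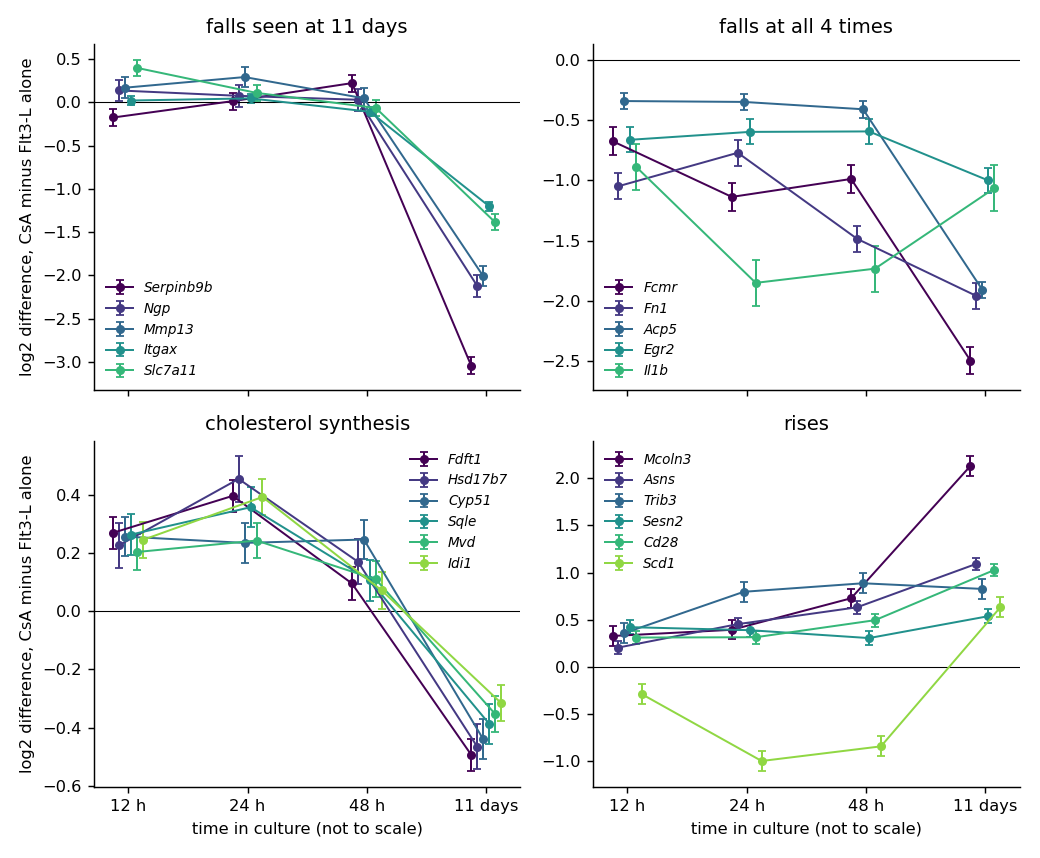
Log2 difference (CsA minus Flt3-L alone) with its SE (3 arrays a group) at 12 h, 24 h, 48 h and 11 days for genes of 4 patterns; the time axis is not to scale. Serpinb9b and Ngp lie near 0 until 48 h and fall at 11 days, Fcmr and Acp5 are below 0 throughout, cholesterol synthesis genes are above 0 early and below 0 at 11 days, and Mcoln3 and Asns are highest at 11 days.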

How the data were processed

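RNA of 27 mouse bone marrow culture samples was measured on Affymetrix arrays. The deposited table holds an intensity for each of 28815 probe sets, summarised with RMA per the submitters' processing notes and given by the authors on a linear scale (5.2 to 18180.7, array medians 114.2 to 124.8). The RMA version, the background step and the annotation build are not given in the sources used here. The log2 of each deposited intensity was taken, as the design foresaw for linear values. Of the probe sets, 21780 name 1 gene, 1605 name several and 5430 are not named here. The probe set with the highest mean stood for each of 998 genes with more than 1, which left 19935 genes. Of 112 called genes with several probe sets, 11 had probe sets of opposite sign. None of these is among the 270 named genes that were followed through the alternatives. Genes named outside those 270, among them Batf3, Zbtb46 and Atf4, were not part of that check.

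All 27 arrays in 9 groups of 3 entered 1 group-means fit (limma 3.58.1, R 4.3.3, lmFit and eBayes), with p-values adjusted by Benjamini-Hochberg over all genes. The contrasts were CsA minus no CsA at each time, and the effect at 11 days against the average effect of the 3 earlier times. The fit was run on simulated data with independent noise in each array, which does not cover arrays that deviate together. The labels do not say that arrays came from separate animals, so p-values measure the spread between these arrays. The number of arrays limits the precision, and no separate depth exists for arrays. Python 3.11.15 served for tables (numpy 2.4.6, pandas 2.3.3) and figures (matplotlib 3.10.9).

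Named genes are the 20 largest called rises and 20 largest called falls without overlap between groups, leaving out predicted genes, small RNAs, olfactory, vomeronasal and taste receptors and immune receptor segments (108 genes). To these were added the 5 largest genes in each direction of the 11 days minus earlier contrast, all calcineurin and NFAT genes, the CDK inhibitors, the D cyclins, Cdk4 and Cdk6, up to 6 members of each of 42 lists, and the cell type markers. Atf4, Ddit3, Ern1, Psat1, Hspa5, Hsp90b1, Siglec1, Srebf2, Cd40 and Cd80 were named after their values were seen. The lists hold 858 genes, of which 794 were measured. The members, lists and comparisons were chosen with earlier results of these data known. No list was tested as a set. Same-numbered arrays of the 2 groups at 11 days correlated at 0.0098, 0.1085 and -0.0387 in their deviations from the group means, so the numbers were not taken to pair them. At 12 h the correlations were 0.19, 0.188 and 0.0979, against 0.0163 at most between different numbers. At 24 h they were 0.3689, 0.3462 and 0.3984, against -0.0622 at most. At 48 h they were 0.5388, 0.1783 and 0.1919. There CsA array 2 correlated at 0.2334 with array 3 without CsA, and CsA array 3 at 0.2159 with array 2 without CsA. The numbers thus paired the arrays at 24 h and more weakly at 12 h, and at 48 h only those numbered 1. Values with a replicate block within each time are therefore given beside the earlier counts they move. The alternatives tried were a fit of only the groups compared, a variance trend, array weights, quantile normalization again, median centring, a filter on dim genes, the mean over probe sets, a pseudocount of 16, a replicate block over all arrays, a replicate block within each time (chosen after seeing the data), and leaving out each of the 6 arrays. Promoter sequences are from RefSeq, build GRCm38.p6.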

Additional observations from a re-analysis of the deposited data

Results flagged for a closer look

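For these genes the CsA effect at 11 days differed from the mean of the effects at 12 h, 24 h and 48 h, by limma's test of that difference (adjusted p below 0.05). They are the 5 largest differences in each direction. The largest positive ones, in log2 units, were Lox at 1.95, Mcoln3 at 1.65, Gprc5b at 1.58, Cox6a2 at 1.37 and Scd1 at 1.34. The largest negative ones were Serpinb9b at -3.07, Ms4a1 at -3.02, Ngp at -2.20, Mmp13 at -2.18 and Ly6a2 at -2.13. Scd1 is the only one of these 10 genes that was called in the opposite direction at an earlier time. Ms4a1 and Ly6a2 lay below an intensity of 75.0 in the CsA arrays at 11 days.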

How the results depend on the processing

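The alternatives were followed for 270 of the named genes, which leave out Batf3, Zbtb46, Atf4 and others. Of the 270, 206 were called, and 177 of these lost their call in none of the 16 alternatives. The other 29 lost their call in at least 1, 16 uncalled genes gained one in at least 1, and none reversed. The filter on dim genes removed some of the 270, which were therefore not tested under it. When 1 of the 6 arrays was left out, 671 to 895 genes were higher at 11 days (980 with all arrays) and 1133 to 1413 lower (1411). For the difference from the earlier times the ranges were 690 to 1043 higher (1039) and 994 to 1310 lower (1335). A fit of only the 6 arrays called 675 higher and 1091 lower. With the replicate number as a block 1209 genes were higher and 1567 lower at 11 days. A replicate block within each time, chosen after seeing the data, called 1626 genes higher in the difference from the earlier times; the cause was not tested. The deposited values carry an unmeasured background, which limits folds between dim levels. The mark of 75.0 used here was set by a share of the genes and is no measured floor.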

Other observations

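Naaa, an acid amidase of lysosomes that is also a cDC1 marker, followed the array number in every group. It measured 305, 736 and 1599 in the CsA arrays 1, 2 and 3 at 11 days, against 615, 1492 and 2691 in the arrays without CsA. Over all 9 groups of the series it lay between 212 and 615 in the arrays numbered 1, between 719 and 1492 in those numbered 2, and between 1422 and 2691 in those numbered 3. Of 19935 genes 3 (Naaa, Slc15a2 and Ica1) kept 1 order of their arrays in all 9 groups, and only Naaa had a range above 1 log2 unit in each. Its CsA effect at 11 days was not called (limma, adjusted p = 0.6), at a log2 difference of -0.93. With the replicate number as a block its adjusted p was 4.4e-06, and with a block within each time, chosen after seeing the data, it was 0.17.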
